A study of Homo sapiens with 6 samples.

Results

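The genes described here are 8 activity-regulated genes, EGR1, EGR2, EGR3, EGR4, NR4A1, NR4A2, NR4A3 and ARC. Their members on the array were all probe sets, groups of short probes read together as a single value, that the platform annotation gives exactly 1 of these symbols. This rule found 15 probe sets for 7 of the 8 genes, out of 22215 probe sets and 11963 named genes in all. EGR2 was not analysed here. The arrays came from SH-SY5Y, a human neuroblastoma cell line, after 1 h in fresh medium with fetal bovine serum. In 3 flasks the medium held unconjugated bilirubin (UCB) at a free, albumin-unbound concentration (Bf) of 140 nM, with the DMSO in which UCB was dissolved. In the other 3 it held DMSO 0.6% alone. The replicates were described as biological, and each group has replicate numbers 1 to 3. All arrays are of 1 clonal tumour line, so the flasks differ in culture and handling and not in genetic background.

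Genes of the EGR and NR4A families are immediate early genes, which cells transcribe within minutes of a stimulus, without new protein synthesis, and then switch off again. The EGR proteins are zinc-finger transcription factors and the NR4A proteins are orphan nuclear receptors, both of which pass a short signal on to later genes. ARC encodes a protein of the postsynaptic density that promotes the endocytosis of AMPA receptors. In neurons these genes are induced by synaptic activity and calcium entry, and in cultured cells also by serum and by a change of medium. Kinases of the ERK, CaMK and PKA pathways act on SRF with its ELK partners, on CREB and on MEF2 at their promoters.

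The promoters of EGR1, NR4A3 and EGR4 are shown because their windows hold letters of the elements that SRF and CREB factors are known to bind. The sequences are from RefSeq (GRCh38.p14), on the gene's strand, 5′ to 3′, and are the 250 bases before the annotated start. EGR1 lies at chr5:138465229-138465478 on the plus strand, and the capitals mark its CArG boxes, the core of the serum response element that SRF binds. NR4A3 lies at chr9:99821635-99821884 on the plus strand and EGR4 at chr2:73293549-73293798 on the minus strand, and in both the capitals mark TGACG, the core letters of the cAMP response element, read on either strand.
EGR1: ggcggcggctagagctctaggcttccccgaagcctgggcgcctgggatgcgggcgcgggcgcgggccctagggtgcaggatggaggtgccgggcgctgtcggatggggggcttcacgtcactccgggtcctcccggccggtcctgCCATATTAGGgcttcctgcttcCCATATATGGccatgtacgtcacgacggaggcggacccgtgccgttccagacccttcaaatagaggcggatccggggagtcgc
NR4A3: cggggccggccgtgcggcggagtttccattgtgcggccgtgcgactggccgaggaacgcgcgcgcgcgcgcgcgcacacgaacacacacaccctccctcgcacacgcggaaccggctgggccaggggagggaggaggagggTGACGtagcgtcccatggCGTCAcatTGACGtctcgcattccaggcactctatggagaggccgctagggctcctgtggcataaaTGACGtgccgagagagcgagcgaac
EGR4: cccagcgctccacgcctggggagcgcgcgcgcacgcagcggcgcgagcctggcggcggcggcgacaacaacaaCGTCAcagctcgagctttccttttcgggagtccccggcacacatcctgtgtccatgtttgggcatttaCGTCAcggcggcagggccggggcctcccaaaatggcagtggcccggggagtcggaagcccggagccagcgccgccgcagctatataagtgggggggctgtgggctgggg

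The 300-base windows searched ran from 250 bases before to 50 after each start, on both strands. The table held 35116 windows. Of these, 5 windows of 4 of the genes were searched, 1 each for EGR1, EGR4 and NR4A3 and 2 for NR4A1. Windows of the genes on 1 chromosome were left out of these 5, though not of the percentages over all windows. No window of EGR3, NR4A2 or ARC was among the 5, so their promoters were not read for these motifs. A CArG box was found in 1.29% of all windows and, of the 5, in that of EGR1 alone, at positions -105 to -96 and -83 to -74. TGACG was found in 24.6% of all windows and in those of EGR1, EGR4 and NR4A3. It began at -135 and -66 in EGR1, at -177 and -109 in EGR4, and at -109, -91, -83 and -25 in NR4A3. The full palindrome TGACGTCA (1.85% of all windows), the NR4A response element AAAGGTCA (1.22%) and the EGR site GCGTGGGCG (0.795%) were found in 0 of the 5, and the NR4A1 windows held none of the motifs searched. These matches describe the letters of the windows and were not tested for binding.

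The values are those of the authors' variance-stabilizing normalization (VSN), on a generalized log2 scale on which a difference of 1 is a 2-fold difference for bright probe sets and understates the fold for dim ones. Array medians lay between 7.73 and 7.97. The arrays of replicate 3 stood apart from the rest. Their actin probe sets were brighter at the 3′ end than at the 5′ end of the transcript by 1.49 (Bf) and 1.90 (DMSO), against 0.10 to 0.50 on the other 4 arrays, and those of GAPDH by 1.03 and 1.15 against 0.20 to 0.25. Each array correlated best with the array of the other treatment that carries its own replicate number. Of 11 noradrenergic neuroblastoma markers measured, 8 lay above the median of all probe sets, among them GATA3, STMN2, DBH and PHOX2A. Below it lay HAND2 (7.87), MYCN (7.62) and TH. TH, the rate-limiting enzyme of catecholamine synthesis, had a level of 6.49, within the range of genes of other lineages such as albumin, insulin and the protamines. The array values of 15 such genes, a rough gauge of the level without expression, ran from 5.82 to 7.59. Against this gauge 5 member probe sets lay above 7.59 on all 6 arrays, both of EGR1, 202340_x_at and 210226_at of NR4A1, and that of ARC. Another 5 lay below it on all 6 arrays, the 3 of NR4A2, 207768_at of EGR4 and 216979_at of NR4A3. Probe sets differ in brightness, so their levels were not ranked against each other. In bulk RNA a change in the number of responding cells and a change of RNA per cell cannot be told apart.

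No EGR, NR4A or ARC probe set passed the test for a change with Bf. At an adjusted p under 0.10 (limma, Benjamini-Hochberg over all probe sets) 0 of the 15 were called, as were 0% of all probe sets, and all 15 had an adjusted p of 1.00. Differences between the Bf and DMSO means ran from -0.20 (NR4A3 209959_at) to 0.16 (EGR4 207768_at), with a median of 0.02 against 0.01 over all probe sets. Levels differed more between replicate numbers. The numbers differed for 10 of the 15 at the same threshold, by an F-test of the replicate number with treatment as a covariate, where 44.6% of all probe sets were called. The call held for 7 of these 10 under each of quantile normalization, equal array medians, and trend and robust settings, and for ARC, EGR4 207768_at and NR4A3 216979_at under 1 of them. The p-values rest on 3 arrays a group, for which an exact two-sided permutation test could not go below 0.1.

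**Figure D1:**
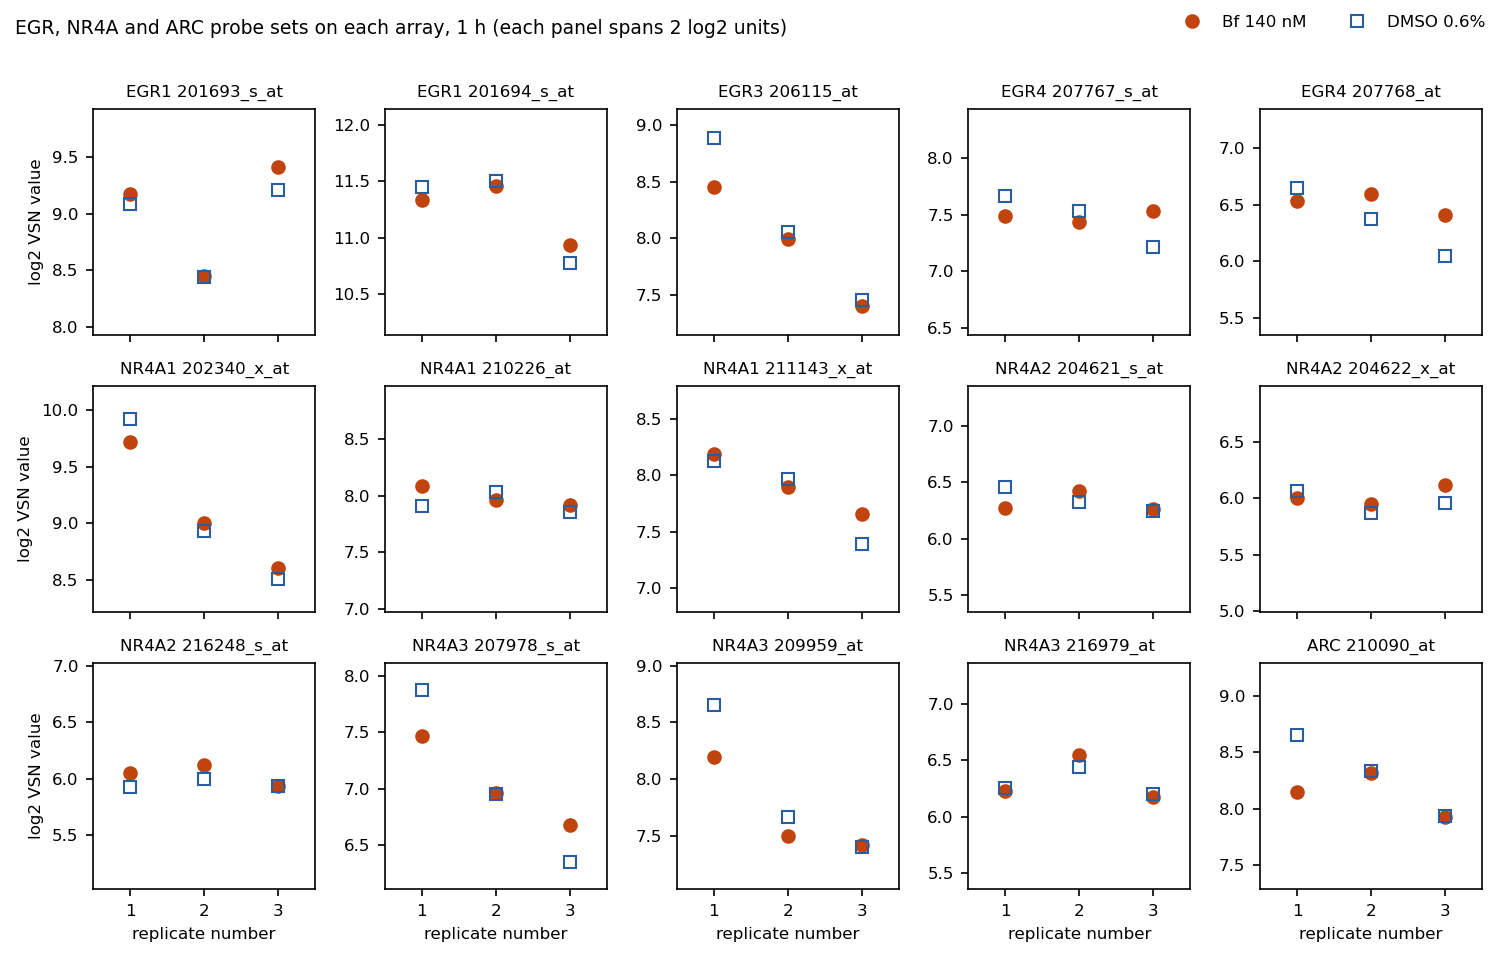
Level of each EGR, NR4A and ARC probe set (log2 VSN value, vertical axis) on the 6 arrays, with Bf and DMSO arrays of the same replicate number side by side. The Bf and DMSO points of a number mostly lie close together, while EGR3, NR4A1 202340_x_at and NR4A3 207978_s_at and 209959_at are highest on the replicate 1 arrays.

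EGR1 is the best known of the EGR factors and is induced by growth factors, calcium and stress. Its probe set 201694_s_at read 11.33, 11.46 and 10.94 on Bf arrays 1, 2 and 3, and 11.45, 11.50 and 10.78 on the DMSO arrays of the same numbers. The groups overlapped, both replicate 3 arrays were lowest, and the difference of -0.00 had a 95% interval (CI) of -0.57 to 0.57. The probe set 201693_s_at read 9.18, 8.45 and 9.41 in Bf and 9.08, 8.44 and 9.21 in DMSO. Here both replicate 2 arrays were lowest, in contrast to the other probe set of the gene. The difference between treatments was 0.10 (CI -0.64 to 0.85), positive in all 3 pairs at 0.09, 0.00 and 0.20. Of the 15 probe sets this was the only one with that sign in every pair, against 11.8% of the whole array.

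EGR3, a related factor induced in neurons and lymphocytes, read 8.45, 8.0 and 7.40 in Bf and 8.89, 8.06 and 7.46 in DMSO on probe set 206115_at. Both replicate 1 arrays were high and both replicate 3 arrays low, and the groups overlapped. Its Bf minus DMSO difference was -0.19 (CI -1.20 to 0.83), made of -0.44 in pair 1 and -0.06 in each of pairs 2 and 3. EGR4, a member of the family expressed mainly in the nervous system, read 7.49, 7.43 and 7.53 in Bf and 7.66, 7.53 and 7.21 in DMSO on probe set 207767_s_at. On 207768_at it read 6.53, 6.60 and 6.41 in Bf and 6.65, 6.37 and 6.05 in DMSO. For both probe sets the DMSO array of replicate 3 was lowest and that of replicate 1 highest, so that the DMSO arrays spanned the Bf arrays. The differences were 0.02 (CI -0.30 to 0.33) and 0.16 (CI -0.24 to 0.55). In pair 3 Bf was higher by 0.32 and 0.36, and in pair 1 it was lower, with differences of -0.17 and -0.12.

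NR4A1, also called NUR77, is a nuclear receptor that is induced by many stimuli and takes part in apoptosis and metabolism. Its probe set 202340_x_at read 9.72, 9.0 and 8.60 in Bf and 9.92, 8.93 and 8.51 in DMSO. The replicate 1 arrays were highest in both groups, the groups overlapped, and the difference was -0.01 (CI -1.05 to 1.03). The probe set 211143_x_at read 8.19, 7.89 and 7.66 in Bf and 8.13, 7.97 and 7.39 in DMSO, a difference of 0.08 (CI -0.47 to 0.64). It had the same order of replicate numbers over a narrower span, and the groups overlapped. The third, 210226_at, read 8.09, 7.96 and 7.92 in Bf and 7.91, 8.03 and 7.85 in DMSO, with little spread and a difference of 0.06 (CI -0.17 to 0.29). Probe sets ending in _x_at can also pick up related transcripts and those in _s_at several transcripts.

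NR4A2, also called NURR1, is required for midbrain dopamine neurons. On 204621_s_at it read 6.27, 6.42 and 6.26 in Bf and 6.46, 6.32 and 6.24 in DMSO, and on 204622_x_at 6.01, 5.95 and 6.12 against 6.06, 5.87 and 5.96. On 216248_s_at it read 6.05, 6.12 and 5.93 in Bf and 5.93, 6.00 and 5.93 in DMSO. All 3 stayed in the range of genes of other lineages, overlapped between groups and had differences of -0.02, 0.06 and 0.08.

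NR4A3, or NOR1, completes the receptor family. Its probe set 207978_s_at read 7.46, 6.96 and 6.68 in Bf and 7.87, 6.96 and 6.36 in DMSO, and 209959_at read 8.20, 7.49 and 7.42 in Bf and 8.66, 7.66 and 7.39 in DMSO. In both, each group was highest on its replicate 1 array, and the groups overlapped. The differences between treatments were -0.03 (CI -1.0 to 0.95) and -0.20 (CI -1.10 to 0.70). In pair 1 Bf was below DMSO, at -0.41 and -0.46, while in pair 3 the differences were 0.33 and 0.02. The third probe set, 216979_at, read 6.23, 6.55 and 6.17 in Bf and 6.26, 6.44 and 6.20 in DMSO, highest on the replicate 2 arrays and with a difference of 0.02 (CI -0.31 to 0.34).

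ARC read 8.15, 8.32 and 7.93 in Bf and 8.65, 8.33 and 7.94 in DMSO on probe set 210090_at. The DMSO array of replicate 1 stood above the other 5, which lay between 7.93 and 8.33. The difference was -0.18 (CI -0.67 to 0.31), of which pair 1 gave -0.51 and pairs 2 and 3 gave -0.01 each. EGR3 and ARC were the 2 of 15 probe sets with a negative difference in all 3 pairs, as had 5.83% of all probe sets. Without the replicate 3 arrays ARC differed by -0.26 and EGR3 by -0.25. The 15 probe sets then ran from -0.31 (NR4A3 209959_at) to 0.12 (NR4A2 216248_s_at). The groups separated without overlap for 0 of the 15 probe sets, against 2.65% of all.

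**Figure D2:**
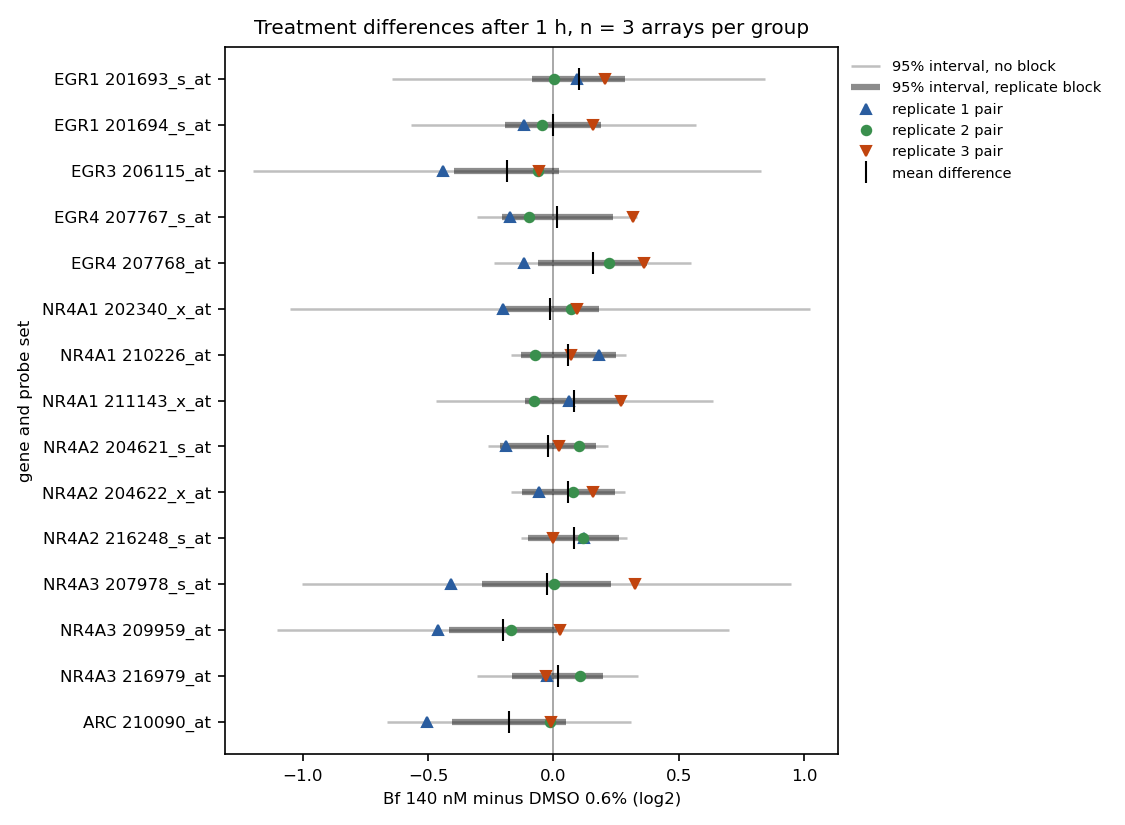
Bf minus DMSO difference (log2, horizontal axis) of each probe set, with the mean as a tick, its 95% interval without the replicate block as a thin bar and with it as a thick bar, and the 3 pair differences as points. All intervals of both kinds include 0. The point of pair 1 lies lowest for most of the probe sets, among them EGR3, ARC and NR4A3 209959_at.

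The array of DMSO replicate 1 was the highest of the 6 for 8 of the 15 probe sets, against 18.4% of all probe sets. In pair 1 the median difference over the members was -0.12, where that over all probe sets was 0.02. In pair 2 the members' median was 0.00 and in pair 3 it was 0.09, against -0.00 and 0.03 over all. Each pair has 1 array of each treatment, so a difference between pairs could not be tested. The SD of the 3 pair differences, set among the 1000 probe sets nearest in mean level, was at percentile 99.4 for NR4A3 207978_s_at, 93.3 and 93.2 for EGR4 and 91.6 for ARC. It was at 26.7 and 39.9 for EGR1.

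The width of the intervals is given on the VSN scale. Without a block, the 95% interval lay within 1 of 0 in either direction for 11 of the 15 probe sets, against 95.4% of all, and within 0.585 for 8, against 79.5%. These limits stand for 2-fold and 1.5-fold differences of bright probe sets alone. For dim ones, such as the 5 below the gauge on all arrays, such folds were not excluded. The 4 whose interval reached past 1 were EGR3, NR4A1 202340_x_at and NR4A3 207978_s_at and 209959_at, the same as had the widest spread between replicate numbers. Same-numbered arrays deviated together. Once the replicate number was fitted as a block, the interval lay within 0.585 of 0 for all 15 (99.9% of all probe sets). NR4A3 209959_at then had the smallest unadjusted p, 0.0650 (limma, CI -0.42 to 0.01), followed by EGR3 at 0.0775 (CI -0.39 to 0.02) and ARC at 0.117 (CI -0.41 to 0.05). Their adjusted p was 1.00, and the block called 0 of the 15 and 0% of all probe sets. An unadjusted p under 0.05 was reached by 0 of the 15 without the block, against 0.099% of all, and by 0 with it, against 1.22%. Both shares of all are below what that level of p gives where nothing changes, so both fits were conservative on these arrays. The lack of calls does not show that levels were unchanged.

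**Figure D3:**
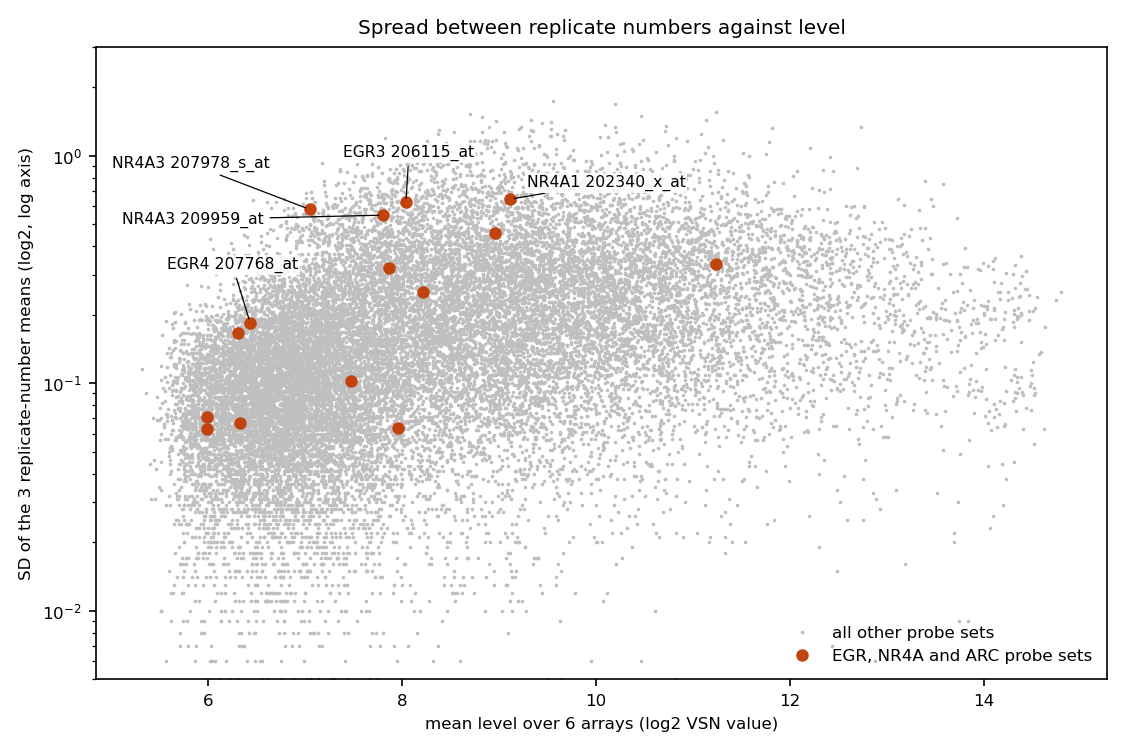
SD of the 3 replicate-number means (log2, logarithmic vertical axis) against the mean level over the 6 arrays (log2 VSN value) for all probe sets in grey and the EGR, NR4A and ARC probe sets in colour. Named are the 5 above the 90th percentile of the 1000 probe sets nearest in level, of which NR4A3 207978_s_at is at 99.2.

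Spread between replicate numbers was measured as the SD of the 3 number means, each the mean of a Bf and a DMSO array. It was above the 90th percentile at similar level for 5 of the 15 probe sets, against 9.87% of all. These were NR4A3 207978_s_at (SD 0.58, percentile 99.2) and 209959_at (0.55, 94.0), NR4A1 202340_x_at (0.64, 94.5), EGR3 (0.62, 94.2) and EGR4 207768_at (0.18, 90.9). EGR1 was at percentiles 85.8 and 66.6 and ARC at 63.0. The NR4A2 probe sets, at 37.8 to 49.0, and NR4A1 210226_at, at 13.4, varied no more than most probe sets of their level. Over the 15 the median SD was 0.25, against 0.14 over all probe sets.

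The means of replicates 1, 2 and 3 were 9.82, 8.97 and 8.56 for NR4A1 202340_x_at and 8.67, 8.03 and 7.43 for EGR3. For NR4A3 they were 7.67, 6.96 and 6.52 on 207978_s_at and 8.43, 7.58 and 7.41 on 209959_at, and for ARC 8.40, 8.33 and 7.93. Replicate 3 was lowest in both treatments for 11 of the 15 probe sets, against 37.7% of all, and replicate 1 highest in both for 5, against 22%. The order of the 3 numbers was the same in Bf and DMSO for 8 of the 15, against 40.7%.

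In the same fit over all 6 arrays, whose estimate of error includes the replicate 3 arrays, replicate 2 was lower than replicate 1 for 5 of the 15 probe sets at an adjusted p under 0.10, where 3.39% of all probe sets were, and higher for 0, against 1.27%. NR4A3 209959_at differed by -0.85 (CI -1.12 to -0.59, limma adjusted p = 0.00374). NR4A1 202340_x_at differed by -0.85 (CI -1.09 to -0.61, adjusted p = 0.00203), and NR4A3 207978_s_at by -0.71 (CI -1.02 to -0.39, adjusted p = 0.0223). Among the EGR genes, 201693_s_at of EGR1 differed by -0.68 (CI -0.91 to -0.46, adjusted p = 0.00501) and EGR3 by -0.64 (CI -0.90 to -0.39, adjusted p = 0.0134). In all 5 the replicate 2 array was lower in Bf and in DMSO alike. Other probe sets of the same genes did not pass: EGR1 201694_s_at differed by 0.09, NR4A1 211143_x_at by -0.23 and 210226_at by -0.00, and NR4A3 216979_at by 0.25. ARC differed by -0.07 (CI -0.35 to 0.21, adjusted p = 0.864). The 3′ to 5′ difference of actin was 0.12 and 0.10 on the replicate 1 arrays and 0.50 and 0.37 on the replicate 2 arrays, and its part in these differences was not tested. Each number mean rests on 2 arrays, and no source used here tells whether same-numbered flasks shared a day or culture.

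**Figure D4:**
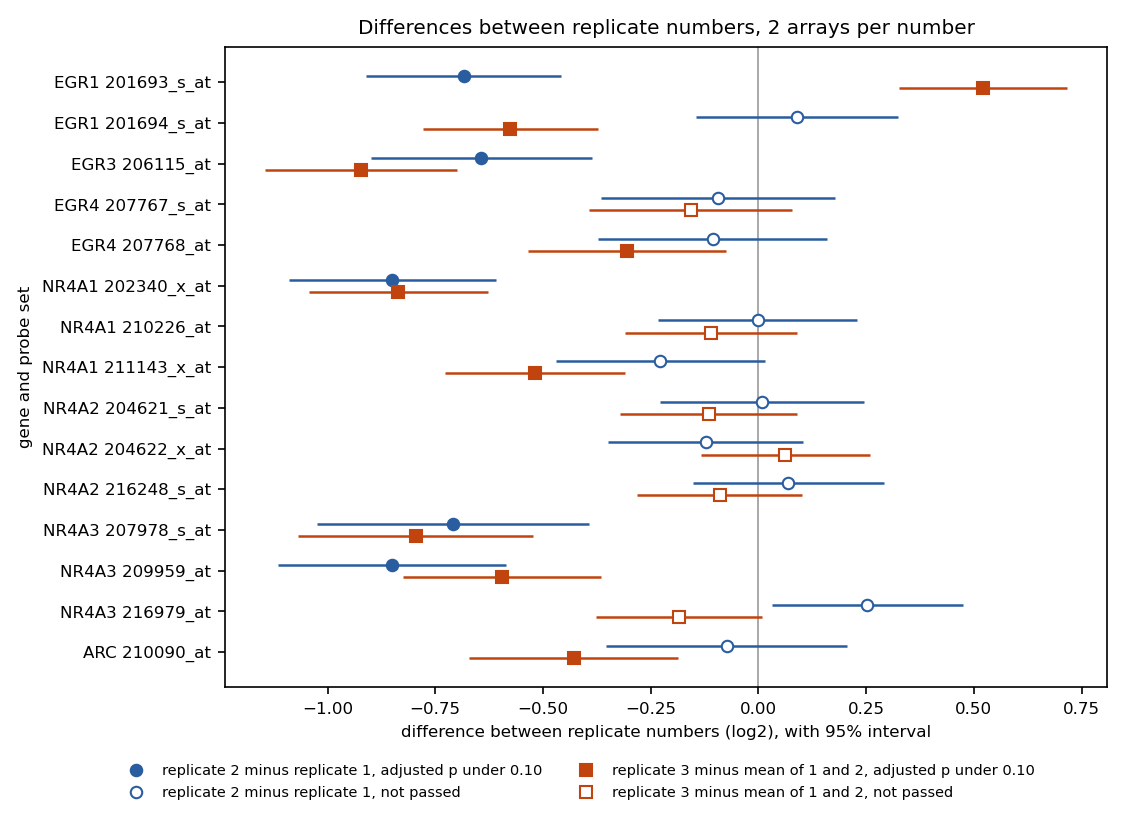
Difference of replicate 2 from replicate 1 and of replicate 3 from the mean of replicates 1 and 2 (log2, horizontal axis) for each probe set, with 95% intervals and filled points for an adjusted p under 0.10. In the first, the intervals of EGR3, EGR1 201693_s_at, NR4A1 202340_x_at and NR4A3 207978_s_at and 209959_at lie below 0, and in the second EGR1 201693_s_at is the one called higher.

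Replicate 3 was below the mean of replicates 1 and 2 for 8 of the 15 probe sets, where 29% of all probe sets were called lower, and above it for 1, where 17.7% were called higher. The largest of these differences were those of EGR3 (-0.92, CI -1.14 to -0.70) and NR4A1 202340_x_at (-0.84, CI -1.04 to -0.63). The probe sets of EGR1 were called in opposite directions, 201694_s_at at -0.58 (limma adjusted p = 0.000327) and 201693_s_at at 0.52 (adjusted p = 0.000524). ARC differed by -0.43 (adjusted p = 0.00829) and EGR4 207768_at by -0.30 (adjusted p = 0.0362). The 3′ bias given above was highest on these arrays, and its part in the differences was not tested.

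Genes of the surrounding pathway were read on the brightest probe set of each gene. The shares of all probe sets given beside them include dimmer probe sets of the same and other genes, so they are not like for like. Shares at similar level were not computed, and a list share above that of all probe sets is not read as a trait of the list. Of 107 measured, 0 were called for Bf against DMSO with or without the block, as were 0% of all probe sets. Among the transcription factors that drive these genes, 15 of 18 list entries were measured and their median difference was 0.02. MEF2A, a calcium-responsive factor, had -0.18 and the acetyltransferase EP300 had 0.15. The replicate numbers differed for 5 of the 15 (33.3%), below the 44.6% of all probe sets, the widest being CREB1, which binds the cAMP response element, at 10.37, 10.09 and 9.42 in replicates 1, 2 and 3, and MRTFA, an SRF coactivator, at 8.01, 8.13 and 7.62. Of the upstream kinases 15 of 20 were measured, with a median of 0.01 and values of 0.06 for RPS6KA4 and 0.08 for PRKACA. The numbers differed for 10 of them (66.7%, against 44.6% of all probe sets), the widest being the ERK kinase MAP2K2, at 10.21, 10.15 and 9.40, and CAMK4, at 8.12, 7.75 and 7.35.

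Partners and corepressors of the EGR and NR4A proteins were measured for 9 of 12 entries, with a median difference of -0.02. NAB2, an EGR corepressor that EGR factors also induce, had -0.14, and RXRB, a retinoid receptor of the type that pairs with NR4A1 and NR4A2, had -0.09. The numbers differed for 5 of the 9 (55.6%, against 44.6% of all probe sets), the widest being NAB1, at 9.95, 9.73 and 10.33, and HDAC3, at 10.20, 9.99 and 9.65. Of the ARC partners 11 of 15 were measured, with a median of 0.01. SH3GL3, an endophilin, had -0.16 and the ubiquitin ligase TRIM3 had -0.11. The numbers differed for 7 of the 11 (63.6%, against 44.6%), with AP2B1 of the clathrin adaptor at 10.69, 10.49 and 9.83 and UBE3A at 10.59, 10.84 and 11.48. In neither list did replicate 2 differ from replicate 1 for any gene at the threshold.

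Other immediate early genes were measured for 32 of 36 entries. Their differences between Bf and DMSO ran from -0.40 (JUNB) to 0.26 (FOS), with a median of -0.03. KLF10, a TGF-beta-induced factor, had -0.23 and RGS2, a G-protein regulator, had -0.13. Only with the block did any of the 107 genes reach an unadjusted p under 0.05. These were 3, FOS, JUNB and KLF10, where 1.22% of all probe sets reached it, and none passed after adjustment. The replicate numbers differed for 19 of the 32 (59.4%, against 44.6% of all probe sets). FOS, which pairs with JUN in the AP-1 factor, stood at 9.46, 8.31 and 7.65 in replicates 1, 2 and 3 and CCN1, a matricellular protein, at 10.56, 10.06 and 8.70. Replicate 2 was below replicate 1 for 6 of the 32, where 3.39% of all probe sets were, FOS (-1.15), the phosphatase DUSP1 (-0.67), MYC (-0.58), ATF3 (-0.55), CCN1 (-0.50) and JUN (-0.48). It was above for the ERK phosphatase DUSP6 (0.53) and the kinase PLK2 (0.85), 2 genes where 1.27% of all probe sets were, so the list did not move in 1 direction.

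Activity-regulated effector genes of neurons were measured for 25 of 27 entries, with a median difference between treatments of 0.00. CRH had 0.10 and PTGS2, a prostaglandin synthase, had 0.09. The numbers differed for 10 of the 25 (40%, against 44.6% of all probe sets), the widest being NEFL, a neurofilament subunit, at 11.88, 12.03 and 12.97 and INHBA at 8.04, 7.71 and 6.96. Replicate 2 was above replicate 1 for VGF (0.55), 1 of the 25 against 1.27% of all probe sets, and below it for RGS4 (-0.81) and DBH (-0.47), 2 of the 25 against 3.39%.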

How the data were processed

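Total RNA of 6 arrays was analysed, 3 of Bf 140 nM and 3 of DMSO 0.6%, grouped by the sample titles. GCOS cell intensities were normalized by the authors with VSN in R 2.5.0, and the deposited values are on a log2 scale. Base 2 rests on the VSN method and the range seen. Probe summarization, and which arrays were normalized together, are not given in the sources used here. The values hold no detection calls, so the study's Present filter was not applied. SAM, the study's test, was replaced by limma 3.58.1 in R 4.3.3 (lmFit, eBayes, Benjamini-Hochberg adjustment) on the 22215 probe sets left after 62 platform controls. It was tested first on simulated data. There treatment was tested without differences between replicate numbers, so that test does not show how the fit without a block behaves on these arrays. Treatment was fitted without a block, as the study names no pairing. Centred on their group, arrays sharing a number correlated at 0.725, 0.783 and 0.880, so the numbers were taken to pair the arrays and a fit with the block was added. A further number in the sample descriptions also matches between the groups for each replicate number, and its meaning is not given. Of the probe sets, 19064 had 1 symbol in the platform annotation, 1043 several and 2108 none.

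The members and the gene lists (upstream factors, upstream kinases, partners and corepressors, other immediate early genes, neuronal activity-regulated effectors, ARC partners) were chosen with earlier results of these data known. Named were all member probe sets and, in each list, the 2 genes of smallest p for treatment and the 2 of largest spread between replicate numbers. Also named were, for EGR1 and ARC, the 3 genes of most similar profile, and, after their values were seen, the list genes for which replicate 2 differed from replicate 1 and those with p under 0.05 under the block. Alternatives were quantile normalization, the replicate block, array medians set equal, a filter at the median level, trend and robust eBayes, array weights, other thresholds, each array left out, natural logs, and windows of 500 and 2000 probe sets. Fits without the replicate 3 arrays were added after seeing the data.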

Additional observations from a re-analysis of the deposited data

How the results depend on the processing

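Of 201 recomputed Bf minus DMSO values of the 15 probe sets, 0 passed the threshold, 164 kept their direction and 37 turned it. Some of the 164 could not turn. The replicate block, the filter at the median level, and trend and robust settings leave each difference as it was, and natural logs only rescale it. Quantile normalization and equal array medians turned EGR4 207767_s_at (-0.0059 and -0.0042) and NR4A3 216979_at (-0.0078 and -0.0028). Array weights, whose fit warned of incomplete convergence, turned EGR4 207767_s_at (-0.071), NR4A1 202340_x_at (0.16), 210226_at (-0.012) and 211143_x_at (-0.010), NR4A2 204621_s_at (0.0097) and NR4A3 207978_s_at (0.045) and 216979_at (-0.036). Without both replicate 3 arrays EGR4 207767_s_at (-0.14) and NR4A1 211143_x_at (-0.0081) turned. The cause was not tested. Leaving out each array in turn gave -0.13 to 0.38 for EGR1 201693_s_at, -0.23 to 0.15 for EGR1 201694_s_at, -0.53 to 0.19 for EGR3, -0.11 to 0.11 for EGR4 207767_s_at, -0.32 to 0.39 for NR4A1 202340_x_at, -0.14 to 0.23 for NR4A1 211143_x_at, -0.073 to 0.038 for NR4A2 204621_s_at, and, for NR4A3, -0.38 to 0.38 on 207978_s_at, -0.46 to 0.18 on 209959_at and -0.099 to 0.089 on 216979_at. ARC stayed negative, at -0.36 to -0.0049. Those that stayed positive were EGR4 207768_at (0.0031 to 0.30), NR4A1 210226_at (0.010 to 0.11), and NR4A2 204622_x_at (0.014 to 0.11) and 216248_s_at (0.039 to 0.13). With the replicate block, where the pairing narrows the intervals, NR4A3 209959_at differed by -0.20 and 0 probe sets were called, as without it.

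The filter at the median level kept 6 of the 15 probe sets, of which the replicate F-test called 5, replicate 2 against replicate 1 called 3 and replicate 3 against the others called 5. The F-test called 7 under quantile normalization, 8 under equal medians and 8 at an adjusted p under 0.05, against 10. Spread between replicate numbers was above the 90th percentile for 6 members with windows of 500 probe sets and for 5 with windows of 2000. It was so for 4 under quantile normalization and for 6 without both replicate 3 arrays, against 5. Shares of all probe sets called under these settings were not computed, so the counts describe the members alone. The 5 probe sets lower in replicate 2 than in replicate 1 were the same under quantile normalization, equal medians, and trend and robust settings. A fit on the 4 arrays of replicates 1 and 2, with 1 residual degree of freedom, called 5 members and 12.5% of all probe sets. On natural logs each difference would be larger, as -0.29 for NR4A3 209959_at. With 3 arrays a group, their number limits the precision.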

Other observations

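The genes whose profile over the 6 arrays was most like that of EGR1 201694_s_at, among 6851 genes above the median level, were ATP6AP1, a subunit of the proton-pumping vacuolar ATPase, TAGLN2, an actin-binding protein, and CA5BP1, a pseudogene. The root mean square difference of the centred log2 profiles was 0.028, 0.034 and 0.035, against 0.28 for the profile of EGR1 about its own mean. Their means in replicates 1, 2 and 3 were 10.53, 10.56 and 9.97 for ATP6AP1, 12.45, 12.48 and 11.86 for TAGLN2 and 8.12, 8.16 and 7.58 for CA5BP1. Because the genes were chosen for a similar profile on these same arrays, their low replicate 3 follows from the choice. Replicate 3 was called lower for 29% of all probe sets.

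For ARC the nearest were ADAMTS1, a secreted protease, CHKA, the kinase that begins phosphatidylcholine synthesis, and ZNF747, a zinc-finger protein. Their differences were 0.062, 0.066 and 0.077, against 0.25 for ARC about its own mean. ADAMTS1 stood at 9.88, 9.69 and 9.36 in replicates 1, 2 and 3, CHKA at 8.95, 8.83 and 8.43, and ZNF747 at 8.78, 8.67 and 8.24.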
